A study of Mus musculus with 6 samples.

Results

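The haemoglobins and erythroid genes are 9 genes that mark red cells and their precursors, namely *Hba-a1*, *Hbb-bt*, *Hbb-bs*, *Hbb-bh1*, *Alas2*, *Slc4a1*, *Ahsp*, *Klf1* and *Epor*. They were chosen as a list of names, and probes were assigned to them through the RefSeq name of each probe. Through these names, 7 of the 9 genes were found, with 10 probes and 28 spots among the 59305 spots that are not controls. *Hbb-bs* and *Ahsp* matched no probe name and have no value here. The 7 genes stand among 45616 features tested.

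All samples came from islets of *Wnt4eGFPCre;mTmG* pups at postnatal day 1, from mice crossed to C57BL/6J. In this cross Cre is made wherever *Wnt4* is transcribed and turns a tdTomato reporter into membrane GFP for good, so that GFP marks cells that express or have expressed *Wnt4*. Hand-picked islets were dissociated and sorted by FACS into GFP+ cells, named Wnt4hi, and GFP- cells, named Wnt4low. Wnt4low can therefore hold islet cells of any kind that lack the reporter, as far as the sort gates let them through. The study's other flow assays gated single, red-fluorescent islet cells before the GFP split, and the gates of the array samples are not given in the sources used here. Each population was measured on 3 arrays of 1 colour, Wnt4hi replicates 2, 3 and 4 and Wnt4low replicates 1, 3 and 4, each from a pool of 4 pups apart from replicate 4 of both populations, which came from 3 pups. The comparison asks which transcripts differ between the islet cells with and without the reporter of *Wnt4* transcription.

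Adult haemoglobin is a tetramer of α- and β-globin chains, each holding a haem group that binds oxygen, and its transcripts are among the most abundant of late erythroblasts and reticulocytes. *Klf1* and *Epor* act early in this lineage, as a transcription factor of β-globin and as the receptor for erythropoietin, while *Alas2* makes the first intermediate of haem and *Slc4a1* encodes the band 3 anion exchanger of the red cell membrane. In newborn pups red cells fill the islet capillaries and the liver still makes blood.

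The arrays were alike in quality. Between 70.5% and 79.5% of spots were well above background, a call of the scanner software, and 0 spots were saturated. Levels are normalized log2 intensities of 1 probe, and can be compared between arrays but not between probes. *Wnt4* itself was 1.08 ± 0.27 (SE) higher in Wnt4hi on the log2 scale, with no overlap between the populations, although its adjusted p in limma was 0.210, and it was well above background on all arrays of both. The 10 β-cell markers summed to intensities of 327925 to 336473 in Wnt4hi and of 190303 to 292784 in Wnt4low. This sum adds probes of unlike brightness, with *Ins1* and *Ins2* the brightest on every array. Taken singly, 9 of the 10 were higher in Wnt4hi and 1, *Mafa*, was at -0.05. One array needs a caveat. The scanner values of the array labelled Wnt4hi replicate 2 did not follow the column of that name in the authors' normalized table (r = 0.29 across 23121 probes, which are not independent), whereas the other arrays followed theirs (r from 0.86 to 0.89). Without it, the log2 fold changes (Wnt4hi minus Wnt4low) of the adult globins were -2.18 for *Hba-a1*, -2.67 for *Hba-a2*, -2.54 for *Hbb-bt*, -3.29 for *Hbb-b1* and -3.63 for *Hbb-b2*. Those of the other listed genes were 0.14 for *Hbb-bh1*, -0.78 for *Alas2*, -0.23 for *Slc4a1*, 0.02 for *Klf1* and 0.22 for *Epor*.

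The start regions of *Hba-a1* and *Hbb-bt* are shown because these adult globins, the ones of the list that were measured, were lower in the same population. That of *Alas2*, whose level did not pass the test, is shown beside them. Each run holds 250 bases before and 50 after the annotated start, on the gene's strand (RefSeq, GRCm38.p6). Capitals mark 5 short motifs, read on either strand: AGATAA and TGATAA, forms of the letters read by GATA factors, CACCC, those read by KLF factors, CCAAT and TATAA. The windows are chr11:32283422-32283721 (+) for *Hba-a1*, chr7:103813874-103814173 (-) for *Hbb-bt* and chrX:150547167-150547466 (+) for *Alas2*.
Hba-a1: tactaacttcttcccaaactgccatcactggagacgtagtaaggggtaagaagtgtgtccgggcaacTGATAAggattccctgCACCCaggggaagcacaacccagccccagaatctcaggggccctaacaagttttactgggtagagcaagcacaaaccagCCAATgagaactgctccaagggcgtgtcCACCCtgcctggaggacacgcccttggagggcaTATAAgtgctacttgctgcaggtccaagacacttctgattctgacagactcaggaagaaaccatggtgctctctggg
Hbb-bt: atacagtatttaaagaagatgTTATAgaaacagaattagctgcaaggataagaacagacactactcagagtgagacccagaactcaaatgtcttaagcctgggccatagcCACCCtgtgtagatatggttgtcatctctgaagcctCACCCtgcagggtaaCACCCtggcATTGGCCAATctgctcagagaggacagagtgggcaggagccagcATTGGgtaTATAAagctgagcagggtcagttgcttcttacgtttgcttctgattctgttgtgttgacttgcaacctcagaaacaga
Alas2: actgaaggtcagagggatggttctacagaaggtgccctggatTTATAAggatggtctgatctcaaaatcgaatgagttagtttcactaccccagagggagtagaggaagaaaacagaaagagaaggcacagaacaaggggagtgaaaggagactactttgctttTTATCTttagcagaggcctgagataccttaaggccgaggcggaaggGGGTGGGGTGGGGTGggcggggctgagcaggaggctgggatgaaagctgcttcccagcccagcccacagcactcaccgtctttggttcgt

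Counted from the start, with the first base before it as position -1, the *Hba-a1* window has TGATAA at -183, CACCC at -167 and -60, CCAAT at -88 and TATAA at -27. The *Hbb-bt* window has 3 CACCC motifs, at -140, -104 and -89, 3 CCAAT motifs and TATAA at -28 and, on the reverse strand, at -229. AGATAA was found on the reverse strand of the *Alas2* window at -86, beside 3 CACCC motifs at -40, -35 and -30. In *Hbb-bt* the CCAAT on the reverse strand at -80 adjoins the one on the printed strand at -75, and TATAA overlaps its own reverse form in *Alas2*. These letters are common. Of 32544 promoter windows of the same length, 57.7% held CACCC, 37.4% CCAAT, 24.8% TATAA, 11.2% AGATAA and 8.91% TGATAA. The windows of *Hba-a1* and its duplicate *Hba-a2* share an unbroken run of 297 bases, whereas those of *Hbb-bt* and *Hbb-bs* share at most 14. The binding of factors was not measured.

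The adult globins of the list that were measured, *Hba-a1* and *Hbb-bt*, were lower in Wnt4hi than in Wnt4low, and *Hbb-bs* has no value. The log2 fold changes (Wnt4hi minus Wnt4low) were -1.72 for *Hba-a1* and a fitted -2.26 for *Hbb-bt*. *Hbb-bt* was well above background on no Wnt4hi array, so only a bound holds, at least 2.5-fold lower in Wnt4hi. The embryonic globin *Hbb-bh1* and the 4 non-globin genes lay within 0.25 of 0. Of the 7 genes, 2 passed the unadjusted p of 0.05 that the study's methods use, both lower in Wnt4hi, against 5.53% of all features. After Benjamini-Hochberg adjustment over all features 0 of the 7 passed in limma, where the shares of all features were 0.406% lower and 0.0351% higher in Wnt4hi. The 3 arrays of each population did not overlap for 1 of the 7 genes, *Hbb-bt*, against 6.44% of all features in that direction and 9.63% in the other, where none of the 7 stood. The median of the 7 log2 fold changes was -0.15, and that of all features was 0.07. In bulk samples, fewer red cells in a sort and less globin RNA per cell cannot be told apart.

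*Hba-a1*, an α-globin chain, lies at chr11:32283672-32284486. Its brighter probe, which stood for the gene, measured 11.57, 10.22 and 10.12 in Wnt4hi replicates 2, 3 and 4 and 12.69, 13.02 and 11.35 in Wnt4low replicates 1, 3 and 4. The means were 10.64 ± 0.81 and 12.35 ± 0.89 (SD, n = 3 each). Wnt4hi replicate 2 stood above its population and just above Wnt4low replicate 4, so the populations overlapped. The log2 fold change was -1.72 ± 0.57 (SE, 95% interval -3.10 to -0.33), a level 3.29-fold higher in Wnt4low, with an unadjusted p of 0.0229 and an adjusted p of 0.349 in limma. It missed the unadjusted threshold without Wnt4hi replicate 3, without Wnt4hi replicate 4, without Wnt4low replicate 1 and without Wnt4low replicate 3, with limma p-values from 0.0685 to 0.0754 and log2 fold changes of -1.38 to -1.55.

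A second *Hba-a1* probe measured 10.03, 8.68 and 8.66 in Wnt4hi and 11.79, 11.77 and 10.17 in Wnt4low. On this probe every Wnt4hi array lay below every Wnt4low array, by a narrow margin between Wnt4hi replicate 2 and Wnt4low replicate 4, and the difference of means was -2.12. Each α-globin probe is printed 10 times on the array, which gives the technical error. The SD over the spots of an array was 0.0902 to 0.163 for the brighter *Hba-a1* probe and 0.0947 to 0.173 for the other, both well under the SD between arrays of a population. In intensities that were not normalized, the median spot of the brighter probe was at 3042, 1447 and 855 in Wnt4hi and at 8485, 8610 and 2214 in Wnt4low.

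**Figure D1:**
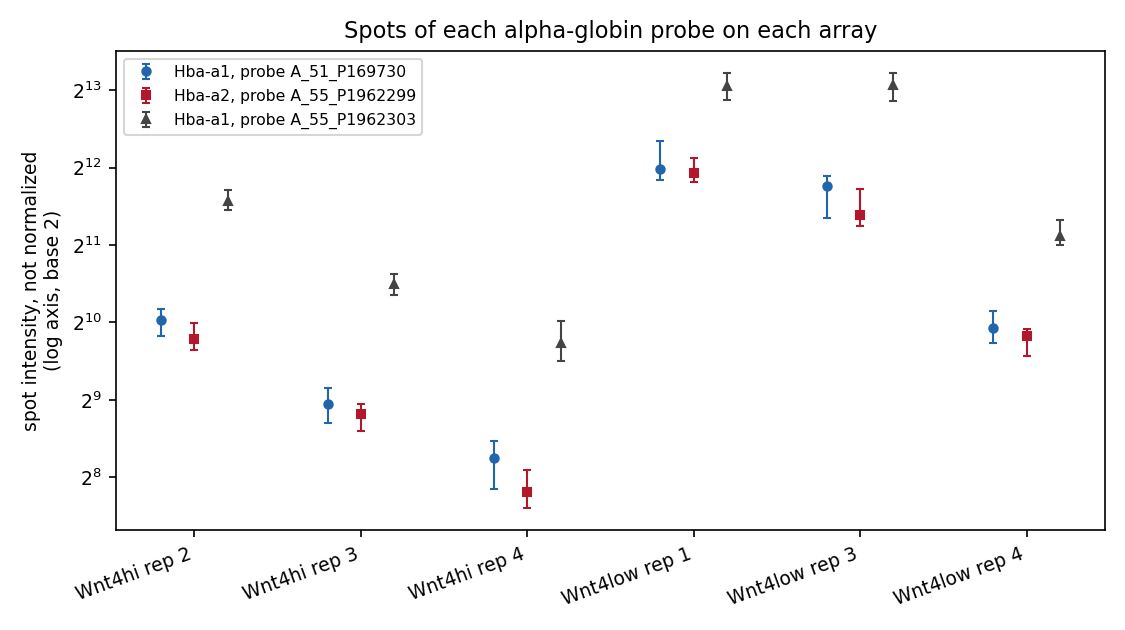
Spot intensities of the α-globin probes before normalization, on a log axis of base 2, for each of the 6 arrays. Points are the medians of the spots of a probe and bars their lowest and highest spot. All 3 probes were brightest on Wnt4low replicates 1 and 3, and Wnt4hi replicate 2 was the brightest of Wnt4hi.

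*Hba-a2*, the α-globin duplicate, measured 9.83, 8.55 and 8.28 in Wnt4hi and 11.70, 11.47 and 10.07 in Wnt4low. The arrays did not overlap, and the order of the arrays was close to that of *Hba-a1*. The log2 fold change was -2.19 ± 0.58 (SE), with an adjusted p of 0.227 in limma. The α-globin genes are near-identical copies, and which of them a probe reads cannot be told apart here.

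*Hbb-bt*, a β-globin chain at chr7:103812524-103813923, measured 6.96, 6.17 and 6.06 in Wnt4hi and 9.14, 9.39 and 7.42 in Wnt4low. The means were 6.39 ± 0.49 and 8.65 ± 1.07 (SD, n = 3 each). All Wnt4hi arrays lay below all Wnt4low arrays, with Wnt4low replicate 4 again the lowest of its population. The probe was well above background on 0 of 3 Wnt4hi arrays and on 2 of 3 Wnt4low arrays, and the level was at least 2.5-fold lower in Wnt4hi, a bound that takes Wnt4low replicate 4 at its own dim value. For it each Wnt4hi array was given the dimmest signal that still counted as well above background. The fitted log2 fold change was -2.26 ± 0.56 (SE, 95% interval -3.62 to -0.89), with an unadjusted p of 0.00656 and an adjusted p of 0.205 in limma.

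The array also holds probes named for *Hbb-b1* and *Hbb-b2*, adult β-globin genes of another mouse haplotype, which are close in sequence to the pair *Hbb-bs* and *Hbb-bt* of C57BL/6J. *Hbb-b1* measured 7.43, 7.32 and 7.10 in Wnt4hi and 10.22, 11.64 and 9.66 in Wnt4low. *Hbb-b2* measured 7.88, 7.33 and 7.0 in Wnt4hi and 10.98, 11.63 and 9.76 in Wnt4low. Both probes left a wide gap between the populations, although only 1 Wnt4hi array for *Hbb-b1* and 2 for *Hbb-b2* were well above background. The fitted log2 fold changes, which rest in part on dim Wnt4hi arrays, were -3.22 ± 0.50 (SE) with an adjusted p of 0.0702 in limma, and -3.39 ± 0.50 (SE) with an adjusted p of 0.0669. The probe sequences were not used here, so which β-globin transcripts these probes read cannot be told apart, and the β-globin probes are not independent of each other.

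**Figure D2:**
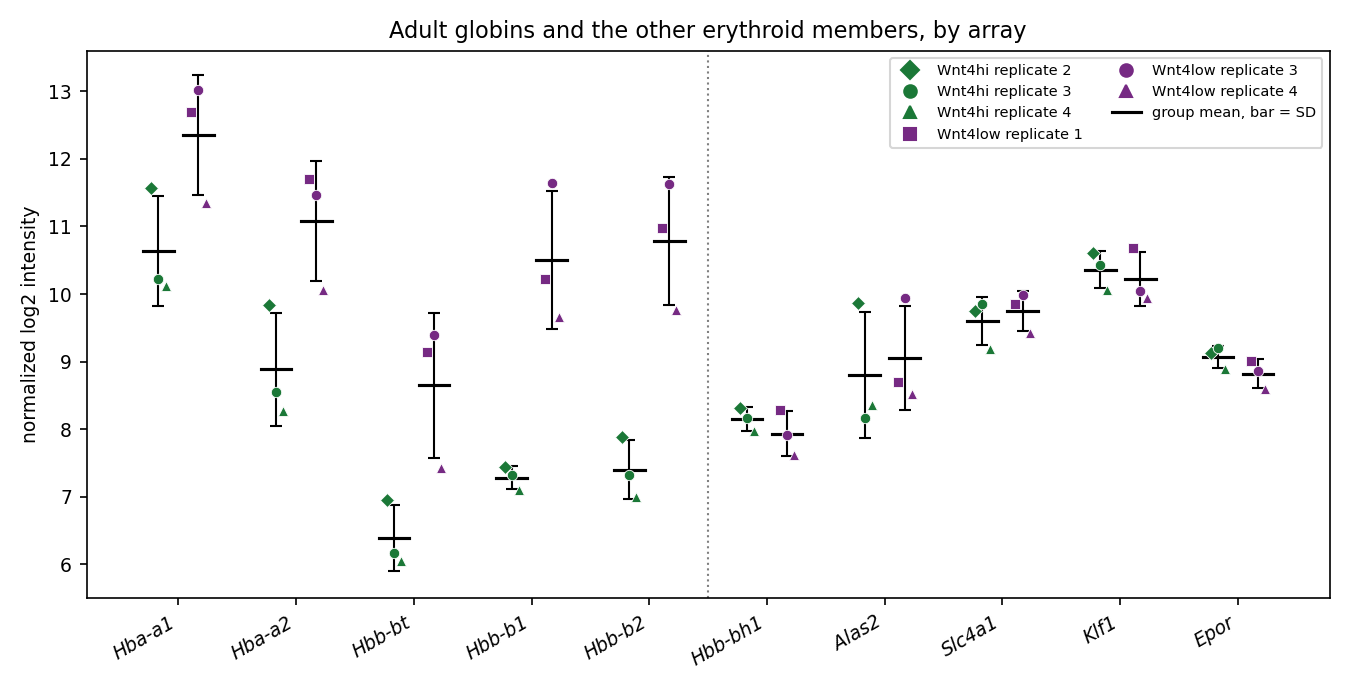
Normalized log2 intensity of the adult globins (left of the dotted line) and of *Hbb-bh1*, *Alas2*, *Slc4a1*, *Klf1* and *Epor* (right) on each array, with green for Wnt4hi and purple for Wnt4low. Lines are means and bars the SD of 3 arrays, and the means of the adult globins sit apart, from 6.39 against 8.65 for *Hbb-bt* to 10.64 against 12.35 for *Hba-a1*, although Wnt4hi replicate 2 reaches above Wnt4low replicate 4 for *Hba-a1*. The arrays of the genes on the right overlap.

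The α-globin probes, well above background on every array, can also be read between arrays of the same number. This uses the same arrays again and is no further support. For *Hba-a2* and the second *Hba-a1* probe, where the populations did not overlap, any matching of arrays had to give a lower Wnt4hi level. For number 3 the log2 difference was -2.80 and -3.08 on the *Hba-a1* probes and -2.92 for *Hba-a2*. For number 4 it was -1.23, -1.51 and -1.79. The difference was smaller between the replicates labelled 4, where Wnt4low was lowest, and the numbers are not known to mark the same pups.

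The globins of the embryo and the minor globin genes lay near 0 in the comparison. *Hbb-bh1*, a β-like globin of the yolk sac, measured 8.32, 8.17 and 7.97 in Wnt4hi and 8.28, 7.91 and 7.62 in Wnt4low. The populations overlapped, with a log2 fold change of 0.22 ± 0.21 (SE, 95% interval -0.29 to 0.73) and an adjusted p of 0.807 in limma. *Hba-x*, the embryonic ζ-like α-globin, was well above background on 0 of 6 arrays. *Hbb-y*, the embryonic ε-like globin, was at 0.01, *Hbb-bh2* at 0.10, *Hbq1b* at 0.17 and *Hbq1a* at 0.29 on the scale of log2 fold changes, and none of these passed the unadjusted threshold. Of the 8 globins outside the list that the array holds, 3 passed it, all adult and lower in Wnt4hi, against 5.53% of all features. The 8 log2 fold changes had a median of 0.06.

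**Figure D3:**
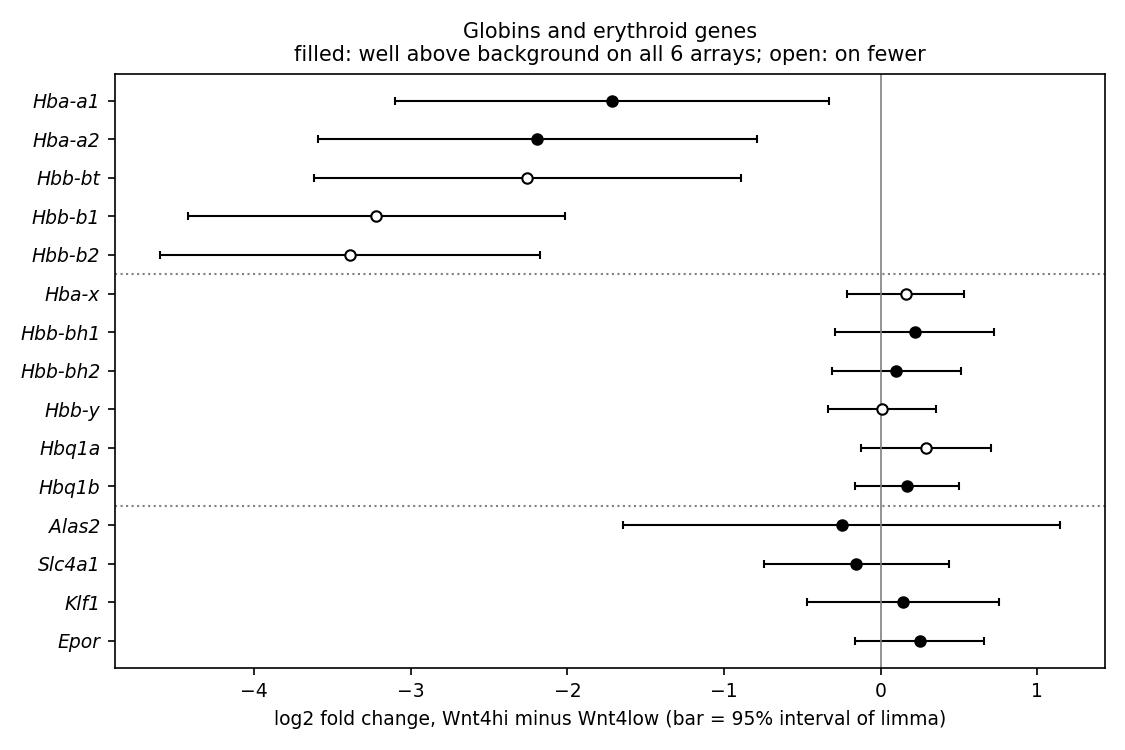
Log2 fold change of Wnt4hi minus Wnt4low for the globins and the erythroid genes, with the 95% interval of limma as bars and open points for probes that were not well above background on all 6 arrays. The intervals of the 5 adult globins lie below 0, and those of the embryonic globins, *Alas2*, *Slc4a1*, *Klf1* and *Epor* cross it.

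*Alas2*, the erythroid enzyme that starts haem synthesis (chrX:150547417-150570622), measured 9.87, 8.17 and 8.37 in Wnt4hi and 8.70, 9.94 and 8.52 in Wnt4low. It was high on 1 array of each population, Wnt4hi replicate 2 and Wnt4low replicate 3, and lower on the others. The log2 fold change was -0.25 ± 0.57 (SE, 95% interval -1.64 to 1.14), with an adjusted p of 0.928 in limma. Its sign rested on single arrays, since it was -0.78 without Wnt4hi replicate 2, 0.07 without Wnt4hi replicate 3 and 0.19 without Wnt4low replicate 3. Between the arrays numbered 3 it was -1.76 and between those numbered 4 it was -0.16.

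*Slc4a1*, the band 3 anion exchanger (chr11:102348820-102365281), measured 9.75, 9.86 and 9.19 in Wnt4hi and 9.85, 9.99 and 9.42 in Wnt4low. The levels of both populations overlapped, with replicate 4 the lowest in each. The log2 fold change was -0.15 ± 0.24 (SE, 95% interval -0.75 to 0.44), with an adjusted p of 0.892 in limma.

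*Klf1*, the transcription factor that switches on adult β-globin (chr8:84901982-84905291), measured 10.60, 10.43 and 10.06 in Wnt4hi and 10.67, 10.04 and 9.95 in Wnt4low. The arrays overlapped throughout, with a log2 fold change of 0.14 ± 0.25 (SE, 95% interval -0.47 to 0.75) and an adjusted p of 0.905 in limma. A second *Klf1* probe was well above background on only 1 array of each population and differed by 0.03.

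*Epor*, the erythropoietin receptor (chr9:21958897-21963576), measured 9.12, 9.20 and 8.89 in Wnt4hi and 9.01, 8.86 and 8.59 in Wnt4low. Its log2 fold change was 0.25 ± 0.17 (SE, 95% interval -0.16 to 0.66), with an adjusted p of 0.711 in limma, and the populations overlapped. A second *Epor* probe went the other way, with -0.10, and so *Epor* has no settled direction. None of the 4 non-globin genes was shown to be unchanged.

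Among the other erythroid genes, those past the unadjusted threshold stood in both directions. Over 78 measured genes of 7 lists, the 8 globins included, 11 were lower and 7 higher in Wnt4hi past the unadjusted threshold, 0 passed after adjustment in limma, and the median log2 fold change was 0.01. The share of all features was 5.53% lower and 5.06% higher. Of 22908 features with a gene symbol, 1786 were lower and 1319 higher. Arrays did not overlap for 6.44% of all features in the lower and 9.63% in the higher direction. The counts of each list below stand beside these shares. Without the globins, 8 of 70 were lower and 7 higher. Leaving out Wnt4hi replicate 2 left 4 of the 78 higher.

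Of 16 genes of the red cell membrane and its skeleton, 1 was lower and 1 higher past the unadjusted threshold, with a median of -0.03. *Gypc*, glycophorin C, measured 8.55, 6.86 and 8.14 in Wnt4hi and 10.15, 10.06 and 10.60 in Wnt4low, a fitted log2 fold change of -2.42 that rests in part on 1 dim Wnt4hi array, with an adjusted p of 0.105 in limma. *Tspan33*, a tetraspanin of erythroid precursors, went the other way, with 10.46, 10.27 and 10.72 in Wnt4hi and 9.60, 9.59 and 9.52 in Wnt4low, and an adjusted p of 0.0915 in limma. Neither overlapped between the populations. *Rhag* and *Epb42*, which encode the Rh-associated glycoprotein and a band 3 anchor, were well above background on no array.

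Of 13 erythroid transcription factors and cofactors, 3 were lower in Wnt4hi past the unadjusted threshold, against 5.53% of all features, and 0 higher. Their median was -0.05. *Lmo2* measured 8.84, 8.15 and 9.29 in Wnt4hi and 11.35, 10.71 and 11.46 in Wnt4low, with a log2 fold change of -2.42 and an adjusted p of 0.0631 in limma. *Gata2* measured 6.84, 7.23 and 6.81 in Wnt4hi and 11.78, 9.22 and 11.03 in Wnt4low. It was well above background on 0 of 3 Wnt4hi arrays and at least 9.57-fold lower there, with an adjusted p of 0.0893 in limma. *Tal1* was at -1.31, with an adjusted p of 0.222. These 3 factors are known from blood vessel cells as well as from blood precursors, and the part of either cell type was not tested. *Gata1*, the master regulator of the lineage, was at -0.05 and was well above background on 2 Wnt4hi and 3 Wnt4low arrays. *Nfe2*, which acts on the globin locus, was well above background on only 1 array of each population, and *Gfi1b* on none.

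Of 12 genes of haem synthesis, 1 was lower and 1 higher past the unadjusted threshold, with a median of 0.18. *Alad*, the second enzyme of the path, was at -1.14 with an adjusted p of 0.117 in limma. *Abcb10*, a mitochondrial transporter that haem synthesis needs, was at 1.23 with an adjusted p of 0.092. Both had arrays that did not overlap, in opposite directions, and *Alas1*, the housekeeping counterpart of *Alas2*, was at -0.34 and did not pass.

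Of 10 genes of iron handling, 1 was lower and 2 were higher past the unadjusted threshold. *Tfr2*, transferrin receptor 2, was at -0.41, with 1 dim Wnt4hi array. *Slc11a2*, which brings iron across membranes, was at 0.85, and *Slc40a1*, the iron exporter ferroportin, at 0.74, with adjusted p-values of 0.219 and 0.392 in limma. *Hmox1*, which degrades haem, spread widely, with 8.59, 7.96 and 11.24 in Wnt4hi and 9.73, 11.23 and 12.57 in Wnt4low. Its arrays overlapped and it did not pass.

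Of 9 genes of erythropoietin signalling, 1 was lower and 2 were higher past the unadjusted threshold. *Sh2b3*, an adaptor that damps this signalling, measured 10.06, 8.89 and 9.23 in Wnt4hi and 10.94, 11.33 and 10.40 in Wnt4low, with a log2 fold change of -1.50 and an adjusted p of 0.205 in limma. *Ptpn6*, a phosphatase that also damps it, was at 0.87, and *Epo*, the hormone itself, at 0.42. Of 10 further genes abundant in late erythroid cells, *Car2*, a carbonic anhydrase, was at -1.01, with 1 dim Wnt4hi array, and *Mkrn1*, a ubiquitin ligase, at 0.97, and the others did not pass. *Car1*, the carbonic anhydrase of red cells, was at -0.26.

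The genes whose levels followed *Hba-a1* most closely over the 6 arrays were *Hba-a2*, *Sh2b3*, *AW549542*, *Fscn1* and *Syde1*. Likeness was the root mean square difference of log2 values centred on each gene's own mean, which was 0.292 for *Hba-a2*, 0.336 for *Sh2b3* and 0.370 to 0.402 for the rest, among 7380 genes with a range of at least 1. For *Hbb-bt* they were *Hba-a2* at 0.266, *Hba-a1* at 0.347, *AW549542* at 0.451, *Tram2* at 0.510 and *Slc9a3r2* at 0.511. *Hbb-bt* itself was well above background on only 2 of the 6 arrays, so its likeness rests largely on dim values. These are descriptions over 6 arrays that share 1 slide.

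Markers of other cell types that a GFP- sort can hold differed to unequal extents. Of all features, 5.53% were lower and 5.06% higher past the unadjusted threshold, and 0.406% were lower after adjustment. All 10 endothelial markers were lower in Wnt4hi past the unadjusted threshold and 8 after adjustment in limma, with a median log2 fold change of -3.63, summed intensities of 4250 to 5716 in Wnt4hi and of 35351 to 63317 in Wnt4low, and *Tie1* and *Tek* well above background on no Wnt4hi array. After adjustment, 9 of all features passed without Wnt4low replicate 3, 1 without Wnt4hi replicate 2 and 0 without any other array, so that most or all of the 8 endothelial calls were lost with an array left out other than Wnt4low replicate 3. Of 12 macrophage markers 5 were lower and 0 higher past the unadjusted threshold, with sums of 10333 to 12940 against 14335 to 15022. Of 10 markers of other leukocytes 3 were lower and 1 of them, *S100a8*, passed after adjustment, with sums of 4400 to 6872 against 8313 to 9926. The *S100a8* call was lost without Wnt4hi replicate 3 or 4 and without Wnt4low replicate 1 or 4. *S100a8* was well above background on no Wnt4hi array, *S100a9* on all 3. Of 9 fibroblast and pericyte markers 7 were lower, with sums of 34259 to 66377 against 82212 to 109465. Of 8 acinar markers 1 was lower, with sums of 6224 to 6630 against 6022 to 24433.

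Of 10 megakaryocyte and platelet markers 0 passed in either direction, with sums of 5762 to 7562 in Wnt4hi and of 5746 to 6382 in Wnt4low. Of these 10, 5 were well above background on all 6 arrays. Only 1, *Ppbp*, among the most abundant of platelet transcripts, was so on no array. Of 10 β-cell markers 6 were higher in Wnt4hi past the unadjusted threshold, and of 4 other islet hormones 2 were higher, 1 of them (*Ghrl*, ghrelin) also after adjustment, and 1 lower. The *Ghrl* call was lost without Wnt4hi replicate 3 or 4 and without Wnt4low replicate 1 or 4, where 0 of all features passed after adjustment. The sum of the 7 erythroid genes adds probes of unlike brightness, of which *Hba-a1* was the brightest on the Wnt4low arrays. These genes summed to 7395, 4737 and 3885 in Wnt4hi and to 10968, 12764 and 5402 in Wnt4low. The 8 other globins summed to 3492, 2971 and 2435 in Wnt4hi and to 8718, 10958 and 4605 in Wnt4low. The endothelial sum was highest on Wnt4low replicate 1 and lowest of Wnt4low on replicate 3, where the sum of the other globins was highest. The acinar sum was also highest on Wnt4low replicate 3, at 24433. Single globins differed in this order, with *Hba-a2* highest on Wnt4low replicate 1. The part of these cell types in the globin difference was not tested.

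**Figure D4:**
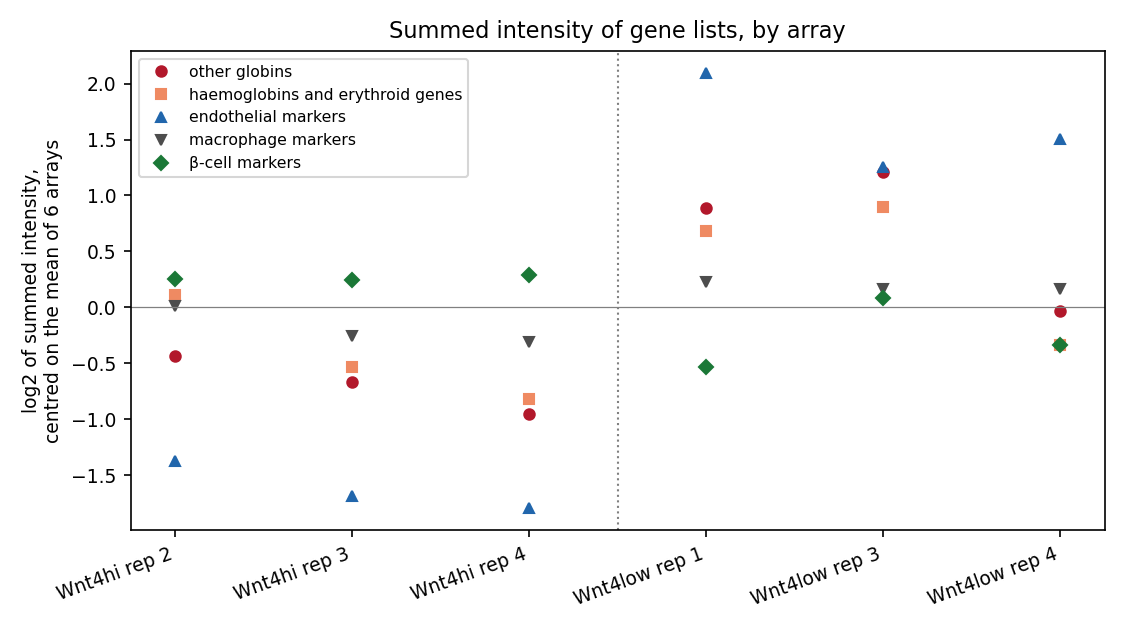
Log2 of the summed normalized intensity of 5 gene lists on each array, centred on the mean of the 6 arrays, with Wnt4hi left of the dotted line. The sums of the other globins and of the endothelial markers are higher on Wnt4low arrays, and the sum of the 7 erythroid genes overlaps, at 7395 on Wnt4hi replicate 2 against 5402 on Wnt4low replicate 4.

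In the authors' own normalized log2 values, *Hba-a1* was at 9.84, 9.73 and 9.69 in Wnt4hi and at 12.43, 12.63 and 10.99 in Wnt4low. There the Wnt4hi arrays lay close together and below every Wnt4low array, and the difference of means was -2.26. The column named Wnt4hi replicate 2 is the one that did not follow its scanner values, and it is lower by more than 1 on the log2 scale than in the scanner values used here. In the same table *Hbb-bt* differed by -2.66, *Hba-a2* by -2.55, *Hbb-b1* by -3.25 and *Hbb-b2* by -3.61, all in the same direction, and *Alas2* differed by -0.66, with 10.04 on Wnt4low replicate 3 and 8.26 to 8.78 on the other arrays. With 3 arrays a population, an exact permutation test could reach no two-sided p below 0.1, so none was used for single genes. Each p-value measures only the spread between these pools of pups.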

How the data were processed

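RNA of the sorted cells was amplified, labelled with Cy5 and hybridised to Agilent mouse arrays, all on 1 slide in 1 scan, so that no batch was tested. The authors deposited scanner intensities of the spots and their local background before normalization, and a table of normalized log2 values. Feature Extraction is named as version 9.1 in the submitters' processing notes and as 12.0.1.1 in the file headers.

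Median intensities were corrected with limma 3.58.1 (R 4.3.3) by normexp (offset 50, fitted on every spot), and quantile normalization was applied to the log2 values without control spots. Outlier spots (50 to 141 per array) were left out and spots of a probe averaged, and the probe with the highest mean stood for a gene. Of 27845 RefSeq names 25126 matched a table of GRCm38.p6, used for names, gene positions and promoters only, since the array design names the build mm9. Wnt4hi and Wnt4low were compared by limma's moderated test (lmFit, eBayes; no covariates) on 45616 features, all of which entered the Benjamini-Hochberg adjustment, beside the unadjusted p of 0.05 of the methods. For a bound, each array of the dim population entered with the dimmest value still called well above background, or with its own where that was higher. A probe counts as well above background on an array where at least a 0.5 share of its spots is.

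The genes, lists and tests were chosen with earlier results of these data known. Named were all globins, and of the other erythroid lists the genes past the unadjusted threshold whose arrays do not overlap and that are well above background on every array of the higher population (at most 15), apart from *Rhag*, *Epb42*, *Gata1*, *Nfe2*, *Gfi1b*, *Alas1*, *Hmox1* and *Car1*, named after their values were seen as markers or roles of the lineage. Values of some listed genes are not reported here. The 5 most similar genes were sought among genes well above background on all 6 arrays. The calculation was tested on simulated data. Signal over background was 9.92 to 14.4 per array, and precision is limited by the 3 arrays a population. Alternatives changed the background correction, normalization, filter on dim probes, outlier spots, choice of probe, variance model, values (the authors' table), replicate block and arrays used.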

Additional observations from a re-analysis of the deposited data

How the results depend on the processing

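Over 21 alternatives, *Hba-a1* ranged from -2.30 to -1.38 on the log2 scale and passed the unadjusted threshold in 16. *Hbb-bt* ranged from -3.29 to -1.89 and passed in all 20 that measured it, *Hba-a2* from -2.70 to -1.88, *Hbb-b1* from -3.89 to -2.65 and *Hbb-b2* from -3.91 to -2.97, each passing in all 21. After adjustment *Hbb-b1* passed in 3 and *Hbb-b2* in 4 of these, with adjusted p-values of 0.0283 to 0.369 and of 0.0254 to 0.365, and 0 of the 7 listed genes passed in any. Of the 7 listed genes, 2 passed unadjusted, but 1 with a filter on dim probes, which drops *Hbb-bt*, 1 with the methods' t-test, which the study names for its other assays and not for the arrays and which loses *Hba-a1*, and 1 to 2 when an array was left out. *Alas2* was at -0.78 without Wnt4hi replicate 2 and turned to 0.07 without Wnt4hi replicate 3 and to 0.19 without Wnt4low replicate 3, and *Slc4a1* to 0.050 without Wnt4hi replicate 4. The median of the 7 ranged from -0.32 to 0.07 with an array left out.

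Of all features 201 passed after adjustment, but 508 with the filter on dim probes, 323 with the probe of smallest p, 406 in the authors' table, 316 in that table without its Wnt4hi replicate 2, 0 with that t-test and 0 to 9 with an array left out (1 without Wnt4hi replicate 2, 9 without Wnt4low replicate 3 and 0 without any other). Of the 78 genes of the erythroid lists 0 passed after adjustment, but 2 with an offset of 16, 1 with the processed signal, 2 with median centring, 5 with the filter, 2 with the mean of probes, 1 with the smallest p, 5 in the authors' table and 1 without its Wnt4hi replicate 2. Of these genes 7 were higher unadjusted, but 4 in the authors' table, 4 without its Wnt4hi replicate 2 and 4 to 9 with an array left out. The alternative without that column was chosen after seeing the data. The causes were not tested. Fewer features (31996) were tested under the filter.

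Numbers 3 and 4 are shared by both populations, and deviations of same-numbered arrays correlated at -0.03 and 0.16, and 2 pairs do not settle whether the numbers pair the samples, so they were taken as numbers only. With a fixed replicate block 0 of all features passed after adjustment, 4 of the erythroid lists were higher unadjusted and 2 of the 7 listed genes passed unadjusted, with *Hba-a1* at -2.02 and *Alas2*, which did not pass, at -0.96. As a random block 1 gene of the erythroid lists passed after adjustment.

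Levels near background, as of *Hbb-bt* in Wnt4hi, give only a bound, and 3 arrays a population leave intervals of over 2 on the log2 scale for the adult globins. *Hbb-bs* and *Ahsp* were not analysed here.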
